A study of Homo sapiens with 8 samples.

Results

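The genes described here are the human miRNA genes with names from MIR200 to MIR499 that were counted in exosomes and cells of the leukaemia line MEC-1. The rule took every row with MIR and a number from 200 to 499, letter and copy suffixes included. It left out MIR200, MIR203, MIR215, MIR223, MIR301, MIR320, MIR363, MIR429 and MIR486 genes, and the cluster whose rows start between 101290000 and 101550000 on chromosome 14 (GRCh37). No measured value entered the rule. It gave 80 genes, out of 1335 miRNA rows and 2709 non-coding RNA features in all, of which 39 had enough counts to be tested. Of the other 41, 18 had no count in any library and 23 had counts below the filter.

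Small RNA libraries had been sequenced from 5 preparations of MEC-1 exosomes and 3 preparations of MEC-1 cells. MEC-1 is an established B-cell line from chronic lymphocytic leukaemia, so every library came from a single line with no genetic or drug treatment. The cells grew in bioreactors with separate medium compartments. The medium had been cleared of calf serum exosomes by ultracentrifugation, apart from that of the upper compartment. Exosomes were collected from the culture supernatant by serial centrifugation with a density cushion. Cell preparations had been harvested alongside 3 of the exosome preparations, but the sources used here do not say which ones. Nothing states that preparations of one kind came from separate cultures. The p-values below therefore measure the spread between these libraries, which may be technical.

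A miRNA gene is transcribed as a long precursor, from which a hairpin is cut and then trimmed to a mature strand of about the length of a small RNA read. The mature strand guides Argonaute proteins to messenger RNAs that pair with its seed, bases 2 to 8, and lowers their translation and stability. Mature miRNAs can also leave the cell inside exosomes, small vesicles released when multivesicular bodies fuse with the cell surface. The numbers in miRNA names follow the order of naming, so these genes are not a family. Among them are miRNAs found in most tissues, such as those of MIR423, MIR425, MIR361 and MIR484. Others are known for particular tissues, such as MIR375 in pancreatic islets and MIR208A in heart muscle.

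The mature sequences are given for the genes on which the results turn, from RefSeq with build GRCh38.p14, with the seed in capitals. RefSeq entries were matched for 75 of the 80 genes, and MIR378D1, MIR378E, MIR297, MIR383 and MIR483 are named without a sequence. The first set is the miR-378 family, shown because its members are nearly the same sequence at different loci.
hsa-miR-378a-3p: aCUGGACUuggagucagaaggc
hsa-miR-378c: aCUGGACUuggagucagaagagugg
hsa-miR-378f: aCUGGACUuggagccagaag
hsa-miR-378g: aCUGGGCUuggagucagaag
hsa-miR-378h: aCUGGACUuggugucagaugg
hsa-miR-378i: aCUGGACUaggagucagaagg
miR-378c was identical to miR-378a-3p over its first 20 bases and differed from it at the 3′ end. miR-378f, miR-378g and miR-378i each had 1 mismatch to miR-378a-3p over the bases compared, and in miR-378g it lay in the seed. Among the 75 genes with a sequence, 7 carried the miR-378 seed, MIR422A among them. The next largest group was the 6 genes of the miR-302 and miR-372 seed. MIR378D1 and MIR378E had no sequence to search, so their seeds were not counted.

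The second set is shown because its genes lie beside each other or share a family name, and their levels are set against each other below.
hsa-miR-221-3p: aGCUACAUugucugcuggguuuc
hsa-miR-222-3p: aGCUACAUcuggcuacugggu
hsa-miR-374a-3p: cUUAUCAGauuguauuguaauu
hsa-miR-374b-3p: cUUAGCAGguuguauuaucauu
hsa-miR-421: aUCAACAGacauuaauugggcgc
hsa-miR-365a-3p: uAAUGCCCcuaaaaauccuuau
hsa-miR-365b-3p: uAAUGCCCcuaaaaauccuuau
hsa-miR-423-5p: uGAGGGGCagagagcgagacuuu
hsa-miR-423-3p: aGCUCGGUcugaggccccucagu
miR-221-3p and miR-222-3p shared their first 8 bases and had 10 mismatches over 21. miR-374a-3p and miR-374b-3p had 4 mismatches over 22, and the 3p strands of MIR365A and MIR365B were the same over all 22. No 5p sequence was matched for MIR374A, so its 5p strand was not compared with that of MIR374B. Counts were given per hairpin, so both arms of a gene were summed. Reads of identical or nearly identical strands cannot be placed at a single locus, which makes the counts of MIR378 genes, MIR365A and MIR365B, and MIR450A1 and MIR450A2 uncertain as measures of each locus. How such reads were shared out is not given in the sources used here.

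Library totals were 23353820 to 32436286 counts in exosomes and 25675636 to 57323598 in cells. Levels are CPM, the counts of a gene scaled to the size of its library, after scaling by trimmed mean of M values (TMM). They are read shares, which cannot tell more copies of a miRNA from fewer of the other RNAs. The TMM factors of exosome library 5 (0.524) and cell library 2 (0.552) stood below those of the other libraries (0.905 to 1.46). Results that rest on these 2 libraries are given with and without them. No other counted feature overlapped any of the 80 genes.

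The 80 genes held 62811 to 237797 counts per exosome library and 132329 to 187048 per cell library. Their share of all miRNA counts was 8.73%, 6.27%, 5.10%, 5.41% and 7.99% in exosome libraries 1 to 5, against 4.23%, 5.52% and 4.82% in cell libraries 1 to 3. The means were 6.70% ± 1.60 in exosomes (SD, n = 5) and 4.86% ± 0.648 in cells (SD, n = 3), and the groups overlapped. Between 40 and 53 of the genes had at least 1 count in an exosome library, and between 43 and 51 in a cell library. Across the 39 tested genes the mean CPM ranked alike in exosomes and cells (Spearman's rho = 0.933, over genes that share libraries, as a description).

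MIR378A and MIR423 made up most of these counts, in different proportions. MIR378A is an intronic miRNA of PPARGC1B that is known for its part in energy metabolism. It gave 72.7%, 48.0%, 50.3%, 54.8% and 63.7% of the counts in exosome libraries 1 to 5, against 37.0%, 32.6% and 37.8% in cell libraries 1 to 3. MIR423, a broadly expressed miRNA, gave 12.1%, 21.2%, 15.0%, 14.0% and 23.8% in exosome libraries, against 42.4%, 52.3% and 33.1% in cell libraries. Neither pair of groups overlapped: MIR378A led in every exosome library, and MIR423 led in cell libraries 1 and 2. These shares add up within a library, so one can be high because another is low. They carry no test.

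**Figure D1:**
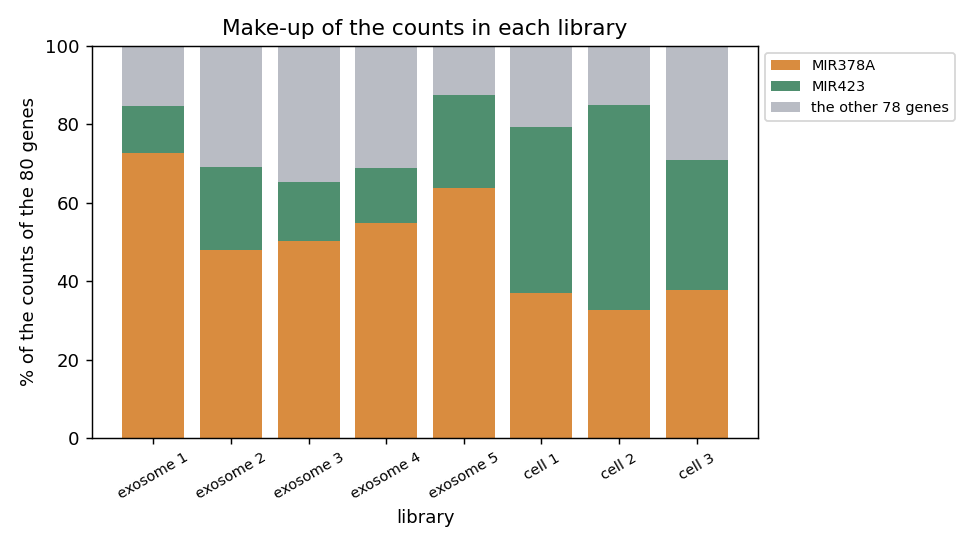
Stacked bars give the share (%) of the counts of the 80 genes that came from MIR378A, from MIR423 and from the other genes, in each of 5 exosome and 3 cell libraries. MIR378A took 48.0% to 72.7% in exosome libraries and 32.6% to 37.8% in cell libraries.

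Scaled against all features, few of the genes were called different between exosomes and cells. By edgeR's quasi-likelihood test with Benjamini-Hochberg adjustment over 1178 features, 2 of the 39 tested genes were higher in exosomes, MIR378C and MIR374B, and 1 was lower, MIR421. Over all features tested, 20.5% were called higher and 22.3% lower, and over the 333 miRNA rows in the same test 40 were higher and 26 lower. The other 36 genes were not called, and 8 of the 39 had an unadjusted p under 0.05, 5 of them higher and 3 lower. The median log2 fold change was -0.22, against -0.09 over all features and 0.01 over all miRNA rows. With scaling by total counts alone, 3 of 39 genes were higher and 0 lower (5 and 0 at an unadjusted p under 0.05), against 19.9% and 16.5% of all features, and the median over all features moved to 0.19. DESeq2 gave an adjusted p to 49 of the genes and called 4 higher, MIR378C, MIR374B, MIR378E and MIR224, and 1 lower, MIR421, against 21.0% and 18.8% of all features. With limma-voom, 2 of 39 were higher and 0 lower, against 19.5% and 21.1%, and 2 were lower at an unadjusted p under 0.05. By edgeR with no filter on low counts, 6 of 62 genes were higher and 0 lower, against 15.1% and 12.2% of all features. With at least 50 counts in 3 libraries, 4 of 30 were higher and 0 lower, against 27.1% and 22.8%. On miRNA rows alone, 1 of 38 was higher and 0 lower, against 10.1% and 3.56% of the miRNA rows. At an unadjusted p under 0.05 these last 3 fits had 2, 0 and 3 lower genes.

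**Figure D2:**
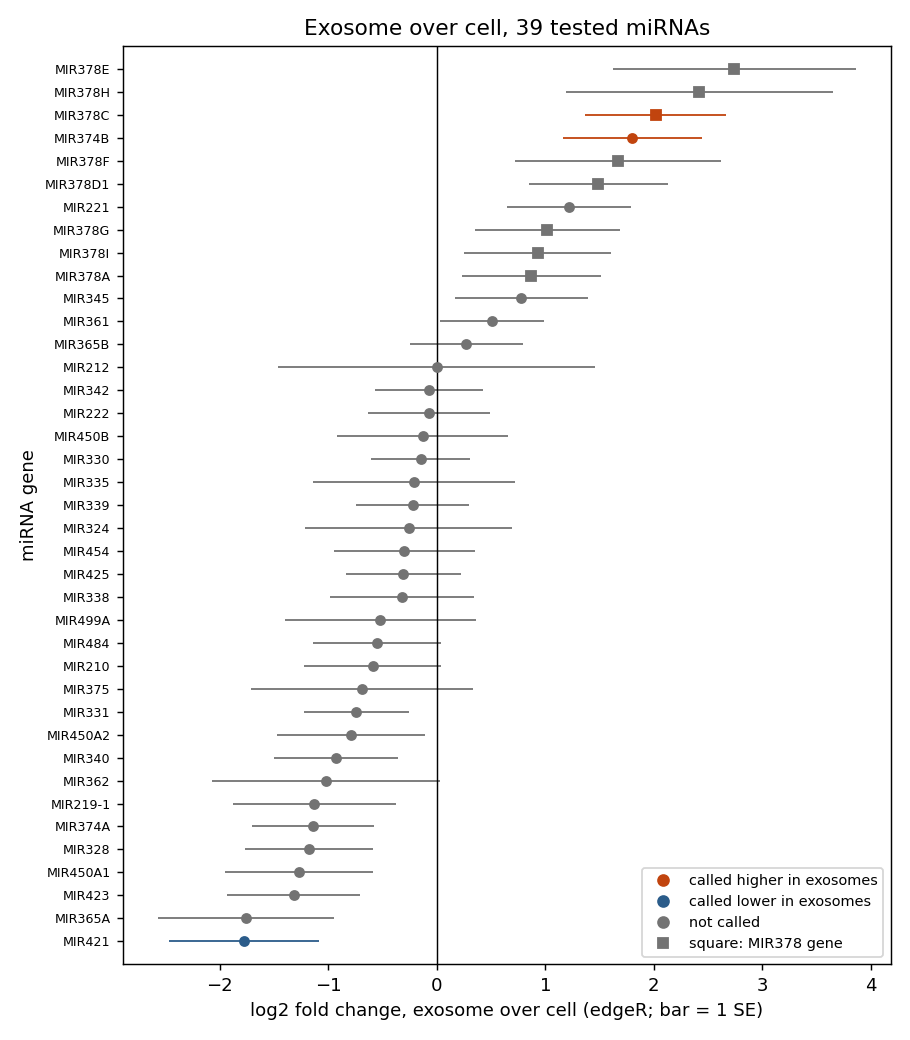
Points give the edgeR log2 fold change, exosome over cell, of each of the 39 tested genes with bars of 1 SE, coloured by call, with squares for MIR378 genes. The squares all lie to the right of 0, between 0.87 and 2.74, and 1 was called, against 20.5% of all features called higher.

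The fitted values of the miR-378 family all lay above 0, with 1 call among 8 tested genes, against 20.5% of all features called higher. The family has 10 genes in the tables, and the log2 fold changes of the 8 tested ran from 0.87 to 2.74. Their median was 1.58, against -0.09 over all features tested. The members tested in each of the 19 alternatives all stayed above 0, with values as low as 0.08. The family members may share reads, so these may not be 8 separate observations, and genes near the filter could pass it through exosome counts alone. MIR378A had 5310, 860, 1050, 2340 and 4850 CPM in exosome libraries 1 to 5, against 1340, 2030 and 1350 CPM in cell libraries 1 to 3. Exosome libraries 1, 4 and 5 lay above all cell libraries and exosome libraries 2 and 3 below them, and MIR378A was not called (log2 fold change 0.87, SE 0.64, adjusted p = 0.292).

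MIR378C, on chromosome 10 at 132760851 to 132760931 (GRCh37, minus strand), had 45.7, 8.56, 15.1, 37.4 and 45.6 CPM in exosome libraries, against 7.49, 7.62 and 7.48 CPM in cell libraries. All exosome libraries lay above all cell libraries, with library 2 closest to them, and the cell libraries differed little among themselves. It was 4.05-fold higher in exosomes (log2 fold change 2.02, SE 0.65, adjusted p = 0.0195, edgeR). Of the 39 tested genes it was the 1 whose groups did not overlap on the CPM scale, against 21.6% of all features higher without overlap and 20.1% lower. Without cell library 1 the adjusted p was 0.0676, without cell library 2 it was 0.0525, and without exosome library 5 and cell library 2 together it was 0.0637 (log2 fold change 1.76).

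In the other tested members, exosome libraries 1, 4 and 5 were again the highest of the 5. MIR378D1 had 9.97, 2.20, 3.92, 9.18 and 15.4 CPM in exosome libraries and 2.85, 3.46 and 2.35 CPM in cell libraries, and was not called (log2 fold change 1.49, adjusted p = 0.0693). MIR378G, whose seed differs, had 7.15, 1.14, 2.45, 6.69 and 7.62 CPM in exosome libraries and 1.78, 3.56 and 2.06 CPM in cell libraries (log2 fold change 1.02, adjusted p = 0.234). In both, exosome libraries 1, 4 and 5 were above all cell libraries and library 2 was below them. MIR378E was spread most unevenly, with 5.86 CPM in exosome library 1 and 0.143 to 0.821 CPM in the other exosome libraries, against 0.133 to 0.357 CPM in cells. Its log2 fold change was 2.74 with all libraries (adjusted p = 0.0579) and 1.08 without exosome library 1 (adjusted p = 0.394). MIR378F, MIR378H and MIR378I stayed under 3 CPM in every library and were not called. MIR378B and MIR422A were below the filter, and MIR422A had 8 counts in exosomes and 0 in cells.

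Set against MIR378A in the same library, which needs no scaling factor, MIR378C still separated the groups. There were 0.862, 0.994, 1.43, 1.60 and 0.940 MIR378C counts per 100 MIR378A counts in exosome libraries 1 to 5. In cell libraries 1 to 3 there were 0.558, 0.376 and 0.556. The ratios of MIR378D1, MIR378E, MIR378G and MIR378I to MIR378A overlapped between the groups. These ratios were chosen after the values were seen and were not tested. GGAG, a motif described in exosomal miRNAs, was searched on the strand given, and was found in 5 of the 7 mature sequences with the miR-378 seed, including miR-378a-3p and miR-378c. Those 5 are nearly the same sequence, so they are not separate observations. GGAG was absent from miR-378h, miR-422a and both mature strands of MIR374B. It was present in 13 of 126 mature sequences of the 75 genes with a sequence (10.3%) and in 395 of 2545 in the RefSeq table (15.5%). Outside the miR-378 family, 3 tested genes held it, 1 with a log2 fold change above 0 and 2 below. Among genes with a sequence, 1 of 2 called higher held GGAG, 0 of 1 called lower and 7 of 34 not called.

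The miR-374 and miR-421 genes, in the transcript of the long non-coding RNA FTX on chromosome X, gave the other calls, in opposite directions. MIR374B (X, 73438382 to 73438453, minus strand) had 25.0, 8.96, 17.7, 23.5 and 6.92 CPM in exosome libraries, against 4.99, 1.93 and 7.23 CPM in cell libraries. All but exosome library 5 lay above the cell libraries, and library 5 lay just below cell library 3. The gene was 3.48-fold higher in exosomes (log2 fold change 1.80, SE 0.64, adjusted p = 0.0320, edgeR). The adjusted p was 0.0697 without exosome library 1, 0.0981 without cell library 1, 0.120 without cell library 2 and 0.0443 without exosome library 5 and cell library 2 together.

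MIR421 is separated from it by 85 bases (X, 73438212 to 73438296, minus strand). It had 3.34, 2.05, 0.964, 5.69 and 1.19 CPM in exosome libraries, against 4.80, 19.5 and 3.08 CPM in cell libraries. The groups overlapped, and cell library 2 stood far above the rest. MIR421 was 3.43-fold lower in exosomes (log2 fold change -1.78, SE 0.69, adjusted p = 0.0472, edgeR), and without cell library 2 the log2 fold change was -0.69 (adjusted p = 0.463). The call was lost under 15 of 19 alternatives, which included leaving out any single library other than cell library 1.

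MIR374A, the paralog of MIR374B in the same transcript, had 6.23, 6.96, 10.1, 12.1 and 4.19 CPM in exosome libraries, against 30.0, 6.49 and 15.9 CPM in cell libraries. Its groups overlapped through cell library 2, and it was not called (log2 fold change -1.14, SE 0.56, adjusted p = 0.113). Without cell library 2 it was lower in exosomes (log2 fold change -1.66, adjusted p = 0.0292). The log2 fold change was -0.61 without cell library 1 (adjusted p = 0.471). The count ratio of MIR374A to MIR374B was 0.249, 0.777, 0.571, 0.513 and 0.606 in exosome libraries, against 6.01, 3.36 and 2.20 in cell libraries. MIR374B thus had more counts than MIR374A in every exosome library and fewer in every cell library. This ratio was chosen after the values were seen and carries no test.

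**Figure D3:**
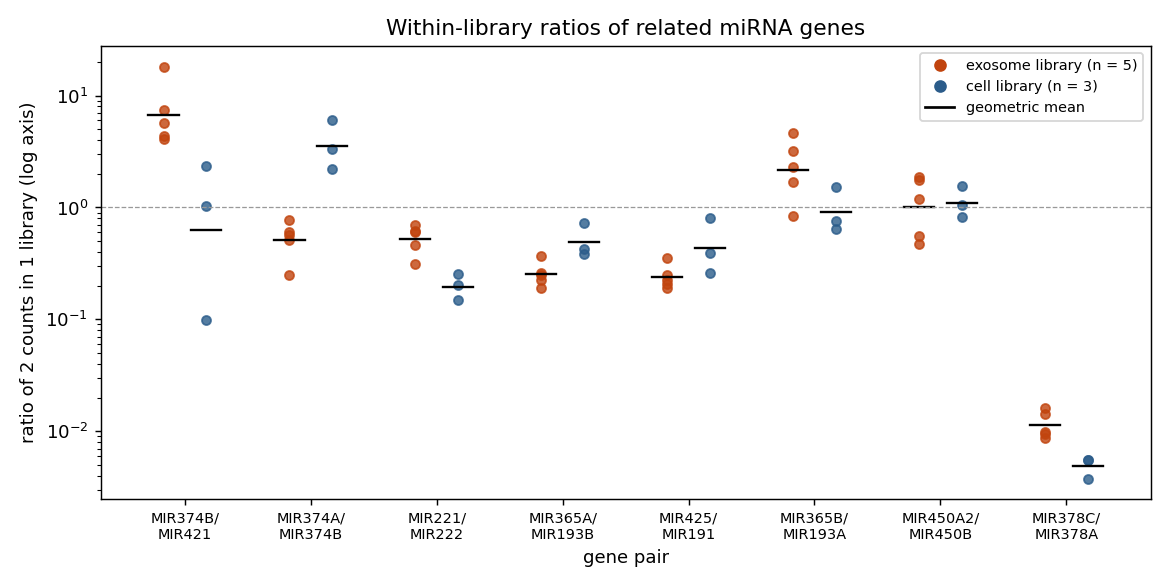
Points give the ratio of 2 gene counts within each of 5 exosome and 3 cell libraries on a log axis, with the geometric mean as a line and a dashed line at 1. The MIR374A to MIR374B ratio lay between 0.249 and 0.777 in exosome libraries and between 2.20 and 6.01 in cell libraries.

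Ratios of neighbouring genes were then tested, because such genes may be cut from 1 transcript and a ratio within a library needs no scaling. Whether each pair shares a transcript was not tested. MIR365A and MIR193B lay 5235 bases apart, and MIR365B and MIR193A 15327. Of 21 pairs considered, 5 had a gene that was not in the tables and 10 had fewer than 10 counts of a gene in some library, which left 6. The test was an exact two-sided permutation test over the 56 splits of 8 libraries, whose smallest p is 0.0357. With adjustment over 6 pairs no ratio fell below 0.05.

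MIR221 and MIR222, known to target the cell cycle inhibitor p27, are separated by 726 bases on chromosome X. The MIR221 to MIR222 ratio was 0.614, 0.701, 0.604, 0.459 and 0.315 in exosome libraries, against 0.202, 0.148 and 0.253 in cell libraries. Every exosome library lay above every cell library. The mean log2 ratio was -0.95 ± 0.46 in exosomes (SD, n = 5) and -2.35 ± 0.39 in cells (SD, n = 3), a difference of 1.40 (exact permutation p = 0.0357, adjusted p = 0.0714). By level, MIR221 had 153, 73.9, 102, 245 and 81.6 CPM in exosome libraries and 36.6, 44.2 and 88.3 CPM in cell libraries, and was not called (log2 fold change 1.22, adjusted p = 0.0967). Its groups overlapped through cell library 3, without which it was higher in exosomes (log2 fold change 2.05, adjusted p = 0.0329). The log2 fold change was 0.87 without cell library 1 (adjusted p = 0.333) and 1.02 without cell library 2 (adjusted p = 0.238). MIR222 had 250, 106, 169, 534 and 259 CPM in exosome libraries and 181, 298 and 350 CPM in cell libraries, with a log2 fold change of -0.07 (SE 0.56, adjusted p = 0.931).

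The MIR374B to MIR421 ratio was 7.46, 4.34, 18.2, 4.12 and 5.69 in exosome libraries, against 1.04, 0.0997 and 2.34 in cell libraries. The groups did not overlap, and cell library 2 was the lowest. The mean log2 ratio was 2.75 ± 0.87 in exosomes (SD, n = 5) and -0.68 ± 2.36 in cells (SD, n = 3), a difference of 3.43 (exact permutation p = 0.0357, adjusted p = 0.0714), which was 2.11 without cell library 2. MIR365A and its neighbour MIR193B ran the other way, with ratios of 0.262, 0.248, 0.227, 0.189 and 0.365 in exosome libraries and 0.385, 0.727 and 0.428 in cell libraries. These groups did not overlap either, and the difference in mean log2 ratio was -0.97 (exact permutation p = 0.0357, adjusted p = 0.0714).

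The other 3 pairs overlapped. The MIR425 to MIR191 ratio was 0.190 to 0.357 in exosome libraries and 0.259 to 0.805 in cell libraries (log2 difference -0.86, exact permutation p = 0.0714, adjusted p = 0.0857), and -0.41 without cell library 2. The MIR365B to MIR193A ratio was 0.840 to 4.60 in exosome libraries and 0.637 to 1.52 in cell libraries (log2 difference 1.27, exact permutation p = 0.0714, adjusted p = 0.0857). MIR450A2 to MIR450B gave 0.472 to 1.89 in exosome libraries and 0.823 to 1.56 in cell libraries (log2 difference -0.13, exact permutation p = 0.857).

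Among the widely expressed miRNAs 21 genes were in the tables and 18 were tested. Calls by edgeR, DESeq2 and limma-voom numbered 0, where 20.5% of all features were called higher and 22.3% lower by edgeR. The median of their edgeR log2 fold changes was -0.28, against -0.09 over all features. At an unadjusted p under 0.05, 2 of them were lower by edgeR, MIR423 and MIR365A, and 1 each by DESeq2 and limma-voom. MIR423 had 887, 380, 314, 599 and 1810 CPM in exosome libraries, against 1540, 3260 and 1180 CPM in cell libraries. All exosome libraries but library 5 lay below the cell libraries, and the gene was not called (log2 fold change -1.32, SE 0.61, adjusted p = 0.0921). Without exosome library 5 it was lower in exosomes (log2 fold change -1.86, adjusted p = 0.0205), and without exosome library 5 and cell library 2 together it was not called (-1.40, adjusted p = 0.0691). The log2 fold change was -0.72 without exosome library 3 (adjusted p = 0.387).

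MIR365A was set by 1 library. It had 22.5, 7.53, 9.71, 21.0 and 32.5 CPM in exosome libraries, against 7.60, 170 and 12.4 CPM in cell libraries. Its log2 fold change was -1.76 with all libraries (SE 0.81, adjusted p = 0.0908), 0.77 without cell library 2 (adjusted p = 0.348) and -2.36 without cell library 1 (adjusted p = 0.0242). MIR365B, with the same 3p strand, had 4.45 to 7.92 CPM in exosomes and 2.47 to 6.72 CPM in cells, and showed no such peak. MIR193B, the neighbour of MIR365A, did show it, with 19.8, 234 and 28.9 CPM in cell libraries 1 to 3. The log2 fold change of MIR193B was -0.39 with all libraries and 1.45 without cell library 2, and it was not called in either fit.

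The other abundant members of this group had overlapping levels and log2 fold changes within 1 of 0. MIR361 had 186, 93.4, 131, 174 and 162 CPM in exosome libraries and 105, 117 and 92.7 CPM in cell libraries (log2 fold change 0.51, SE 0.48, adjusted p = 0.419). MIR425 had 59.2 to 156 CPM in exosomes and 59.3 to 160 CPM in cells. MIR342, from an intron of EVL, had 56.6 to 120 CPM in exosomes and 50.2 to 130 CPM in cells (log2 fold change -0.07, SE 0.50, adjusted p = 0.916). MIR339 had 35.1 to 47.1 CPM in exosomes, a narrow range, and 20.0 to 72.3 CPM in cells. MIR210, the miRNA best known for induction under hypoxia, had 12.8, 34.9, 20.3, 22.5 and 9.51 CPM in exosome libraries and 30.0, 7.52 and 52.6 CPM in cell libraries. It was not called (log2 fold change -0.59, SE 0.63, adjusted p = 0.481). The SE of these fits was 0.48 to 0.63 on the log2 scale, so differences of 1 log2 unit or more could go uncalled here. On simulated counts, drawn from 1 abundance profile with fewer changed features than were called here, the fit called 33 of 88 features changed 4-fold. The rate in the real libraries may differ. The lack of a call therefore does not show equal levels.

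Lower in abundance, MIR484, whose hairpin is a transcript start and needs no Drosha cut, had 16.8, 10.8, 9.0, 5.98 and 17.5 CPM in exosome libraries and 24.1, 4.82 and 23.9 CPM in cell libraries (log2 fold change -0.55, adjusted p = 0.483). MIR340 had 12.6, 7.64, 7.34, 8.30 and 6.43 CPM in exosome libraries and 26.5, 4.16 and 17.7 CPM in cell libraries. MIR328 had 2.06, 2.11, 1.84, 2.82 and 0.839 CPM in exosome libraries and 4.31, 2.06 and 6.86 CPM in cell libraries. In all 3 genes cell library 2 was the lowest cell library and lay among or below the exosome libraries, while cell libraries 1 and 3 lay above every exosome library. With all libraries neither MIR340 (log2 fold change -0.93, adjusted p = 0.200) nor MIR328 (-1.18, adjusted p = 0.116) was called. Without cell library 2 both were lower in exosomes, MIR340 at -1.51 (adjusted p = 0.0275) and MIR328 at -1.58 (adjusted p = 0.0434). MIR340 was at -0.49 without cell library 1 (adjusted p = 0.585), and MIR328 at -0.41 without cell library 3 (adjusted p = 0.674). MIR330 had 7.59 to 11.2 CPM in exosomes and 8.68 to 11.7 CPM in cells, and MIR331 3.97 to 8.45 CPM in exosomes and 6.76 to 11.5 CPM in cells. MIR335, an intronic miRNA of the imprinted gene MEST, had 0.570 to 6.01 CPM in exosomes and 0.0998 to 4.12 CPM in cells. MIR345 had the highest log2 fold change of the tested genes in this group, at 0.78 (SE 0.61, adjusted p = 0.328), with 2.93 to 6.66 CPM in exosomes and 0.832 to 3.97 CPM in cells. These genes were named after their values were seen.

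**Figure D4:**
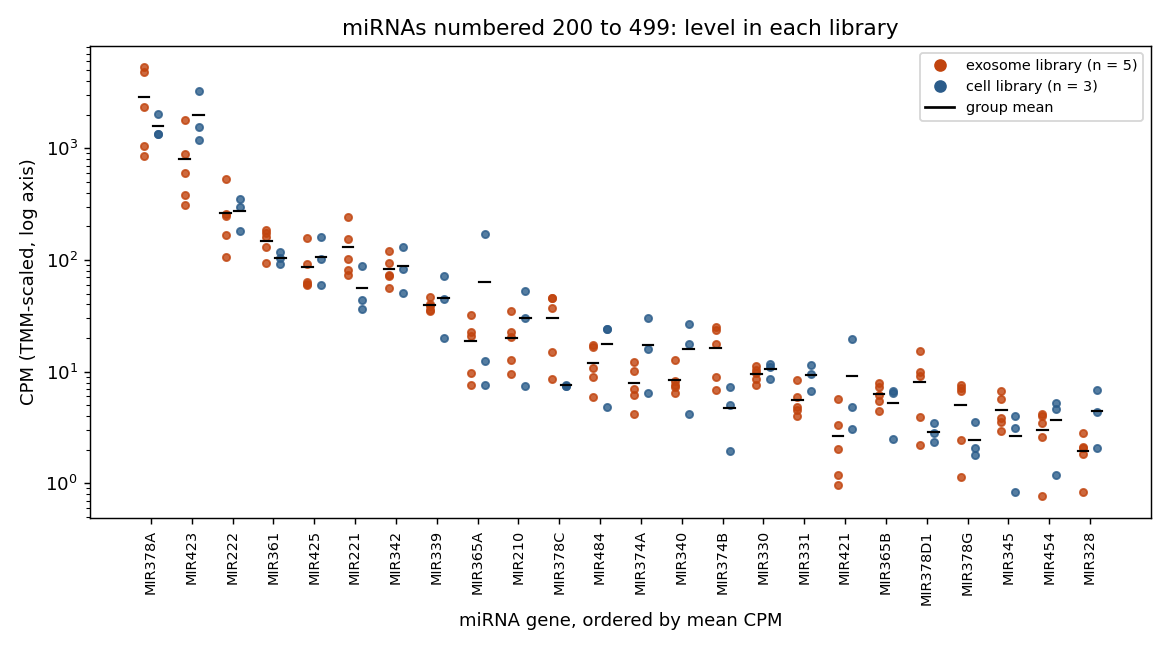
Points give the TMM-scaled CPM (log axis) of the tested genes with the highest mean levels in each exosome library and cell library, with the group mean as a line. MIR378A and MIR423 lie far above the rest, and the exosome and cell points of MIR378C do not overlap.

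The miR-450 genes, transcribed together with MIR424 and MIR503 on chromosome X, were low and not called. MIR450A1 had 0.839 to 1.96 CPM in exosomes and 0.665 to 5.76 CPM in cells (log2 fold change -1.27, SE 0.68, adjusted p = 0.145). It was lower without cell library 2 (-1.80, adjusted p = 0.0317), and its log2 fold change was -0.19 without cell library 3 (adjusted p = 0.877). MIR450A2 had 0.998 to 2.73 CPM in exosomes and 0.632 to 6.26 CPM in cells, and MIR450B 0.827 to 5.80 CPM in exosomes and 0.599 to 4.01 CPM in cells. MIR450A1 and MIR450A2 share a 5p strand. MIR362 had 0 to 0.644 CPM in exosomes and 0.0665 to 0.983 CPM in cells.

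Of 17 neighbours outside the number range, 14 were tested and 2 were called, both higher in exosomes, against 20.5% of all features called higher. MIR503, from the MIR424 transcript, had 26.6, 2.97, 3.24, 17.6 and 59.4 CPM in exosome libraries and 2.96, 2.53 and 7.05 CPM in cell libraries (log2 fold change 2.39, SE 0.91, adjusted p = 0.0432). Its call was lost without exosome library 5 (1.62, adjusted p = 0.0954), among others. MIR500A, in the cluster of MIR362, had 2.83 to 7.27 CPM in exosomes and 0.399 to 1.60 CPM in cells, without overlap (log2 fold change 1.92, SE 0.67, adjusted p = 0.0284). Without cell library 2 it was 1.39 (adjusted p = 0.0890). In the same cluster MIR501 and MIR502 also lay higher without overlap, and were not called (log2 fold change 1.42 and 1.43). The 3p strands of MIR500A, MIR501 and MIR502 are nearly the same, so they may share reads and may not be separate observations. MIR500B, MIR532 and MIR660 overlapped and were not called (0.22, 0.59 and 0.95). Among the 14 tested neighbours 3 were higher without overlap, against 21.6% of all features. The log2 fold change of MIR362 itself was -1.02 (SE 1.05, adjusted p = 0.467). MIR503 and MIR500A were named after their values were seen.

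miRNAs known for other tissues were low or absent. MIR338 had 0.763 to 2.42 CPM in exosomes and 0.732 to 2.68 CPM in cells. MIR219-1 had 0.428 to 2.03 CPM in exosomes and 0.675 to 4.13 CPM in cells, and both are neural or glial genes. Of 9 stem cell and placenta genes 7 had no count in any library, and the 2 others, MIR302A and MIR372, had 1 and 2 counts in all. Of 5 pancreas and endocrine genes only MIR375 was tested, at 0 to 0.675 CPM in exosomes and 0.329 to 0.665 CPM in cells. The summed level of 10 neural, glial and eye genes was 1.74 to 3.64 CPM in exosomes and 3.39 to 4.86 CPM in cells. That of 5 muscle and heart genes was 0.599 to 2.52 CPM in exosomes and 0.768 to 1.31 CPM in cells. The 5 epithelial and ciliated genes summed to 0 to 1.16 CPM in exosomes and 0 to 0.333 CPM in cells, and the 2 stroma genes, MIR214 and MIR455, to 0 to 0.699 CPM and 0.0333 to 0.219 CPM. By edgeR and limma-voom 4 genes of these lists were tested and 0 were called, with 0 at an unadjusted p under 0.05. DESeq2 gave an adjusted p to 11 and called 1, MIR224, higher in exosomes. Over all features edgeR called 20.5% higher and 22.3% lower, limma-voom 19.5% and 21.1%, and DESeq2 21.0% and 18.8%. By edgeR with no filter on low counts, 3 of 21 were higher and 0 lower, against 15.1% and 12.2% of all features. With the filter, the edgeR log2 fold changes were -0.69 for MIR375, -0.52 for MIR499A, -1.13 for MIR219-1 and -0.32 for MIR338.

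Counts in exosomes alone were seen for 11 genes, all below the filter and all absent from at least 2 exosome libraries. With 5 exosome and 3 cell libraries, a rare read had more exosome libraries in which to fall. The share of all features with counts in exosomes alone was not taken, so the number of such genes is a description. MIR208A, a miRNA of the heart myosin gene MYH6, had 18, 0, 0, 1 and 36 counts in exosome libraries 1 to 5 and 0 in every cell library. MIR224, from an intron of GABRE, had 4, 13, 37, 0 and 0 counts in exosome libraries and 0 in every cell library. Most MIR208A counts came from exosome libraries 1 and 5, and most MIR224 counts from libraries 2 and 3. Against a floor of 3 counts over the 3 cell libraries, MIR208A was at least 13.4-fold higher in exosomes, and at least 5.09-fold without exosome library 5, which held 36 of its 55 counts. MIR224 was at least 13.2-fold higher, and at least 5.78-fold without exosome library 3, which held 37 of its 54 counts. MIR208B had 18 counts in 3 exosome libraries and was at least 4.39-fold higher, and at least 1.86-fold without exosome library 4. MIR372 had counts in cells alone. Without the filter on low counts, edgeR called MIR208A, MIR208B and MIR224 higher in exosomes, and DESeq2 called MIR224. Over all features these 2 fits called 15.1% and 21.0% higher. These floors cover counting error only.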

How the data were processed

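Whole-number read counts per non-coding RNA feature were deposited by the authors for each library. Per the submitters' processing notes the tools were cutadapt 1.1 and STAR, then featureCounts and DESeq2 1.8.2, and the builds named were GRCh37, hg19 and hs37d5. The strand and multi-mapping settings are not stated. Reads carried no molecular identifiers.

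The 5 exosome and 3 cell libraries were compared on the deposited counts in edgeR 4.0.16 (R 4.3.3), with filterByExpr, TMM factors and a robust quasi-likelihood fit with Benjamini-Hochberg adjustment over the 1178 of 2709 features that passed the filter, called at 0.05. CPM use TMM library sizes. Ratios of neighbouring genes had 0.5 added to both counts and were tested by exact permutation. Ratios within the miR-378 and miR-374 families were taken on the counts as they stand, with no test. DESeq2 1.42.0 and limma 3.58.1 were alternatives. On simulated counts of 1117 features the fit called 33 of 88 features changed 4-fold, 72 of 91 changed 8-fold and 1 of 938 unchanged.

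Genes were named if called, among the 10 highest by mean CPM, among the 3 highest of a list, or in a tested pair. The lesser miR-378 and widely expressed genes, MIR503, MIR500A and the other neighbours of MIR362 were named after their values were seen. Genes and lists were chosen with earlier results of these data known.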

Additional observations from a re-analysis of the deposited data

Results flagged for a closer look

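In 50 groups of 5 exosome values, 1 value stood apart from the other 4 in 2 groups by Dixon's gap test, and chance gives about 1 in 20. MIR378E had 5.86 CPM in exosome library 1, a gap to the next library that was 0.881 of the whole range. MIR212 had 1.12 CPM in exosome library 5, with a gap of 0.725 of the range. MIR212 had 0.143 to 0.411 CPM in the other exosome libraries and 0.219 to 0.675 CPM in cells, from 5 to 16 counts per exosome library.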

How the results depend on the processing

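The counts of 2 genes higher and 1 lower changed with the processing, among alternatives of which leaving out exosome library 5 with cell library 2, and the fit with no robust prior, were chosen after seeing the data. Higher genes numbered 1 of 38 on miRNA rows alone (10.1% of those rows) and 4 of 49 with DESeq2 (21.0% of all features). They numbered 6 of 62 with no filter (15.1%) and 4 of 30 with at least 50 counts in 3 libraries (27.1%). Without each library in turn, 0 to 5 genes were higher, against 181 to 271 of the 1130 to 1278 features tested. Lower genes numbered 0 by edgeR on total counts (16.5% of all features) and on miRNA rows alone (3.56% of those rows). They also numbered 0 with no filter (12.2% of all features), with at least 50 counts (22.8%) and with near-identical features counted once (22.5%). By limma-voom 0 were lower (21.1% of all features). Without exosome library 5 and cell library 2, 4 were lower, against 247 of 1250 features. Without each library in turn, 0 to 4 were lower, against 190 to 262 of the 1130 to 1278 features tested. At an unadjusted p under 0.05 the fits with 0 lower genes gave 0 to 3. The median log2 fold change was 0.29 with DESeq2, 0.46 with no filter, 0.15 with at least 50 counts, and -0.46 to 0.37 without each library. The MIR450A2 to MIR450B log2 difference was 0.05 without exosome library 5 and cell library 2, and -0.36 to 0.14 without each library. The other 5 pairs kept their direction in each alternative that had enough counts for them. No called gene reversed its sign. The cause of these shifts was not tested. Deviations of same-numbered exosome and cell libraries correlated at 0.0305, -0.0540 and 0.169, so the numbers were not taken as a pairing. With the replicate number as a block, 1 gene was higher (MIR374B, not MIR378C at log2 fold change 1.25, adjusted p = 0.210) and 1 lower (MIR423, -1.93, adjusted p = 0.0271), against 16.6% and 15.8% of all features, and the pairs gave 1.70, 3.75, -1.01, -1.02, 1.85 and -0.14 in the order MIR221, MIR374B, MIR365A, MIR425, MIR365B and MIR450A2.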
